A study of Mus musculus with 14 samples.

Results

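Embryoid bodies (EBs) of 2 mouse ES cell lines were compared after 4 days of differentiation toward motor neurons, as 1 RNA-seq library labelled *Taf9b* KO against 1 library labelled WT. A locus was taken into the comparison when it exceeded 1 FPKM (fragments per kilobase of transcript, scaled to the mapped fragments of the library) in at least 1 of these 2 libraries, a rule that 12563 of the 23152 RefSeq loci in the day 4 table met. Of these, 3 had been marked by the authors' program as too deeply covered to quantify and were left out, so 12560 loci are described. *Sult2b1*, at 1.0003 FPKM in its higher library, lay just inside the limit, and *Ggt7*, at 0.99897 FPKM, just outside it.

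Both lines are on the C57BL/6 background. The library labelled WT came from JM8 cells, and the library labelled KO from the clone Taf9b_BG10, with the genotype label TAF9B -/-, a male line in which a LacZ-Neo cassette was inserted in place of the coding exons of the X-linked *Taf9b* gene. Each group is thus 1 clone of 1 line and 1 library. The ES cells were kept with LIF on inactivated mouse embryonic fibroblast (MEF) feeder layers, and EBs of both lines then received SAG, a small-molecule agonist of Smoothened, together with retinoic acid (RA), so both sides of the comparison carry both agents. The labels call the day 4 samples neuronal progenitors. Poly-A RNA was measured, ES cells and EBs of days 2 and 6 were measured in the same way, and each time point was quantified in a table of its own.

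TAF9B is a paralog of TAF9, a histone-fold subunit shared by the general transcription factor TFIID and the coactivator SAGA. In the differentiation scheme used here, RA drives ES cells out of pluripotency and gives the neural tissue a hindbrain and spinal identity through the *Hox* genes, and activation of Smoothened, as by Sonic hedgehog (Shh), gives it a ventral identity. Ventral progenitors then express *Olig2* and *Nkx6-1*, Notch signalling through HES proteins holds them as progenitors, and proneural bHLH factors such as NEUROG2 drive them to become neurons.

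The targeted gene went against the labels. *Taf9b* (chrX:103402213-103416497 in mm9) was at 1.96 and 4.27 FPKM (log2 ratio 1.12) in the libraries labelled WT and KO, in this order, which is kept throughout. In ES cells the values were 0.537 and 3.06 FPKM, at day 2 they were 0.516 and 4.08 FPKM and at day 6 1.37 and 4.01 FPKM. The library labelled KO had the higher level at all 4 time points, and all 4 libraries labelled WT stayed below 2 FPKM. The table gives 1 value per locus and none per exon, so which part of the locus the reads came from was not analysed. For this reason the samples are called the library labelled WT and the library labelled KO, and every direction below goes by label.

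With 1 library per side there is no replicate error and no test, and the depth of the libraries is unknown since the table holds no counts. A locus is counted as higher or lower when its FPKM in the library labelled KO differed by more than 2-fold from that in the library labelled WT. By this rule 1519 loci (12.1% of those expressed) were higher and 557 (4.43%) were lower. These shares are the background for every gene list that follows. At day 2 the shares were 1.19% higher and 1.4% lower, and in ES cells they were 0.54% and 0.59%. At day 6 they were 10.5% and 9.93%. Thus the distance between the libraries was wider at day 4 than before it, with an interquartile range of the log2 ratio of 0.753 against 0.309 at day 2 and 0.793 at day 6.

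The higher and the lower loci were expressed at different levels. Loci past 2-fold higher had a median of 1.29 FPKM in the library labelled WT and 4.86 FPKM in that labelled KO, and 458 of the 1519 exceeded 10 FPKM in 1 library. Loci past 2-fold lower went from a median of 8.35 FPKM to 2.37 FPKM, and 241 of the 557 exceeded 10 FPKM. Among the 614 loci with a geometric mean of at most 1 FPKM, 58.8% were higher and 15.96% lower. A locus of this class passed the filter in 1 library only, so a large ratio there follows in part from the filter. Between 1 and 3 FPKM 25.5% of 1958 loci were higher and 6.79% lower. Between 10 and 30 FPKM 4.85% of 3630 loci were higher and 2.62% lower, while among the 838 loci above 100 FPKM 2.39% were higher and 4.06% lower. Higher loci thus outnumbered lower ones in these classes except above 100 FPKM. The median log2 ratio over all expressed loci was -0.03. Of the expressed loci, 832 passed 1 FPKM in the library labelled KO alone and 294 in the library labelled WT alone.

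**Figure D1:**
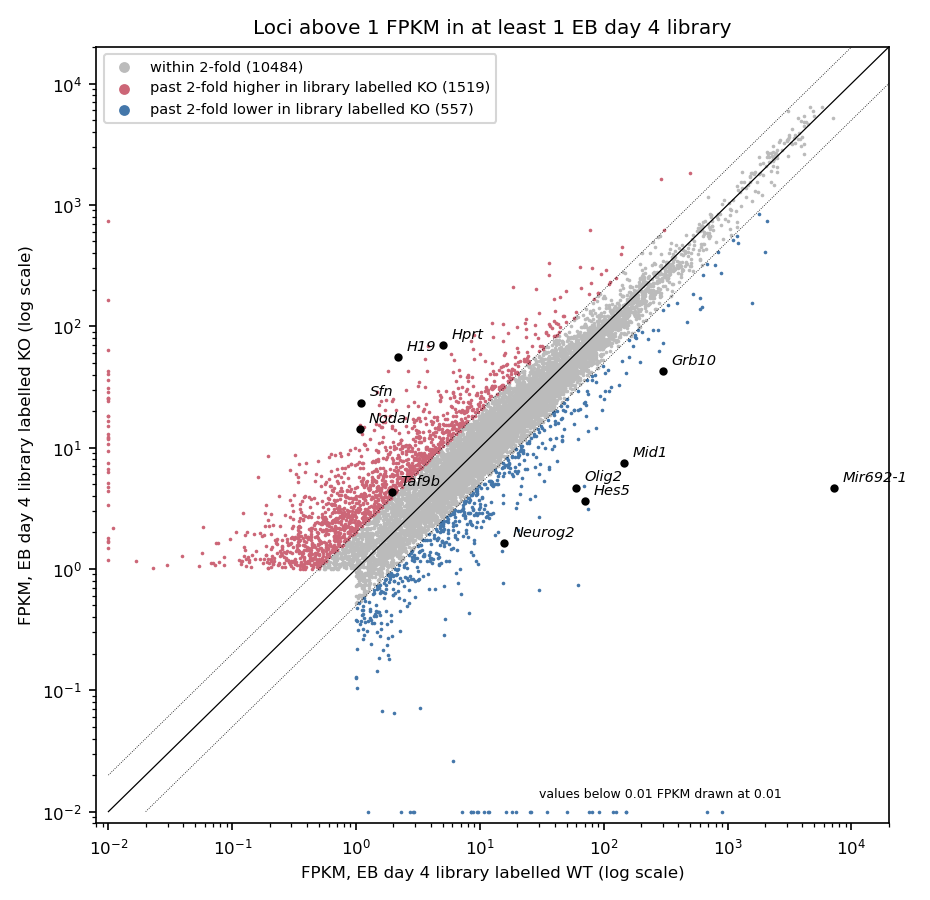
FPKM of each locus above 1 FPKM in at least 1 EB day 4 library, in the library labelled WT (x axis, log scale) and the library labelled KO (y axis, log scale), 1 point per locus, with dotted lines at 2-fold and named genes in black. The 1519 red points above the upper line spread to the low end of the x axis, and *Mir692-1* lies alone at the right.

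The *Hes5* promoter and the sites bound by TAF9B next to *Olig2* and *Neurog2* are shown here because these 3 genes stood among the 15 largest falls. *Hes5* encodes a bHLH repressor that Notch induces through RBPJ. Its promoter, 250 bases before and 50 after the start of the gene, lies at chr4:154960673-154960972 on the plus strand of GRCm38.p6 in RefSeq, a build other than that of the deposited tables. The capitals mark the 6 letters TGGGAA, the core of the sequence that RBPJ binds, on either strand.
Hes5 promoter: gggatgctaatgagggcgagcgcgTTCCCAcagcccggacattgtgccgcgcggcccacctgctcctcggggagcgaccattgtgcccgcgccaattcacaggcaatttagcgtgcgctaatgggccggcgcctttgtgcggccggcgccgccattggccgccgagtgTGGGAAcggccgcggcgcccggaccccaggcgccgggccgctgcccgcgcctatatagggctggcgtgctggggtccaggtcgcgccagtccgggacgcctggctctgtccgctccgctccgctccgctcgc
The window holds 2 matches, 1 on each strand, and 25.6% of the 32852 RefSeq promoters of this length hold at least 1.

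TAF9B peaks were called from chromatin of EBs enriched in motor neurons of another ES cell line, HBG3, at a later time, and their windows are given in mm9, the build of the deposited files. At *Olig2*, which encodes the bHLH factor that defines motor neuron progenitors, the peak (MACS score 135) ended 84 bases before the locus, and the 300 bases at chr16:91225416-91225715 are printed. At *Neurog2*, which encodes a proneural bHLH factor of motor neuron precursors, the higher of 2 peaks within 5 kb (score 120) ended 291 bases before the locus, and the window is chr3:127335490-127335789. Capitals mark CAGCTG, an E-box that proneural bHLH proteins can bind and that reads the same on both strands.
Olig2 peak window: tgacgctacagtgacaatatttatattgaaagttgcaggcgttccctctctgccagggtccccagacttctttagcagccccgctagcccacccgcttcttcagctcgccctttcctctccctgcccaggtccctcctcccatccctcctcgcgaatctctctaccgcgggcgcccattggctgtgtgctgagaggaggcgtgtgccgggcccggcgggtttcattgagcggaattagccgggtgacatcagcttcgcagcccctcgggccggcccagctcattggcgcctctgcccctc
Neurog2 peak window: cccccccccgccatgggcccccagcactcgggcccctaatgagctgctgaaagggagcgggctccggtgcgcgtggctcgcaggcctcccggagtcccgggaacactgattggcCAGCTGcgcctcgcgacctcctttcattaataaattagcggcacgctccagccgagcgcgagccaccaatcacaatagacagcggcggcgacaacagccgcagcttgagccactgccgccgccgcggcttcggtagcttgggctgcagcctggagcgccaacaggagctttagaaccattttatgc
The *Neurog2* window holds 1 match and the *Olig2* window none, and 22.7% of the 10402 TAF9B peak windows of this length hold at least 1.

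The largest falls held a microRNA locus, regulators of neural progenitors and loci of other kinds. They were taken as the 15 lowest ratios among loci above 1 FPKM in both libraries and at 10 FPKM or more in 1 of them. *Mir692-1* (chr17:7099578-7099686) was at 7228 and 4.62 FPKM (log2 ratio -10.61). Its mature product in RefSeq is shown with the seed, bases 2 to 8, in capitals.
mmu-miR-692: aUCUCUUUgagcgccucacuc
The locus is 109 bases long, and fragments of poly-A RNA that fall there are not the mature microRNA. It was at 514 and 6.16 FPKM in ES cells, so this difference was present before differentiation.

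*Hes5* (chr4:154335032-154336480) was at 71.0 and 3.61 FPKM (log2 ratio -4.30). *Olig2* (chr16:91225795-91228922) was at 59.9 and 4.67 FPKM (log2 ratio -3.68). *Nkx6-1*, its homeodomain partner in motor neuron progenitors, was at 30.2 and 2.67 FPKM (log2 ratio -3.50). *Neurog2* (chr3:127336063-127338549) was at 15.8 and 1.62 FPKM (log2 ratio -3.28). In ES cells and at day 2, *Hes5*, *Nkx6-1* and *Neurog2* were below 1 FPKM on both sides, so they differed once they had come on in the library labelled WT. *Olig2* was expressed before, at 16.5 and 18.6 FPKM in ES cells and 11.4 and 12.6 FPKM at day 2, and by day 4 it had gone up on the WT-labelled side and down on the other. At day 6 *Neurog2* reached 44.3 and 0.219 FPKM. *Hes5* and *Olig2* were then at 24.4 and 0.533 FPKM and at 34.1 and 8.02 FPKM, both still lower in the library labelled KO. *Pantr1*, a non-coding RNA divergent to the neural POU factor gene *Pou3f3*, was at 15.1 and 1.41 FPKM (log2 ratio -3.42).

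Other large falls concerned loci that differed from the outset. *Mid1*, an X-linked ubiquitin ligase of microtubules, was at 147 and 7.50 FPKM (log2 ratio -4.29) and already at 17.8 and 2.91 FPKM in ES cells. *Grb10*, an imprinted adaptor that dampens insulin and IGF signalling, was at 299 and 42.8 FPKM (log2 ratio -2.80) and at 83.1 and 32.0 FPKM in ES cells. *AA465934*, a locus with no assigned function here, was at 74.8 and 3.12 FPKM (log2 ratio -4.58). Across the 15 falls, 4 were also expressed and past 2-fold lower in ES cells, 7 at day 2 and 12 at day 6, and 6 lay below 1 FPKM in both libraries of both earlier time points. Of the 15, 13 were below 10 FPKM in the library labelled KO. The 15 falls also held the X-linked monoamine oxidase gene *Maob*, at 27.9 and 3.99 FPKM, *Btbd17* and *Hddc3*, and the snoRNA loci *Snora61* and *Snord89*. These did not differ in this way from the outset. In ES cells *Maob* was at 0.635 and 0.633 FPKM, *Hddc3* at 2.93 and 2.30 FPKM and *Btbd17* below 1 FPKM in both libraries. *Snora61*, at 1115 and 2172 FPKM, and *Snord89*, at 25.4 and 65.9 FPKM, were then higher in the library labelled KO.

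The largest rises, chosen by the same limits, held genes of pluripotency, of Nodal signalling, of the early placental lineage and of imprinting. *H19* (chr7:149761437-149764051), an imprinted non-coding RNA, was at 2.20 and 55.4 FPKM (log2 ratio 4.66). *Lefty1*, a Nodal antagonist that Nodal itself induces, was at 1.80 and 43.0 FPKM (log2 ratio 4.58). *Nodal* was at 1.08 and 14.1 FPKM (log2 ratio 3.71). *Sfn*, the epithelial 14-3-3 protein stratifin, was at 1.10 and 23.5 FPKM (log2 ratio 4.41). *Esrrb*, an orphan nuclear receptor of the naive state, was at 1.53 and 22.5 FPKM (log2 ratio 3.87). *Dnmt3l*, a cofactor of de novo DNA methylation, was at 1.75 and 24.7 FPKM (log2 ratio 3.82). *Tfap2c*, an AP-2 factor of trophectoderm and germ cells, was at 1.97 and 24.9 FPKM (log2 ratio 3.66). In the group was also the X-linked homeobox gene *Rhox6*, at 1.15 and 14.7 FPKM.

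For each of these 15 rises the library labelled WT at day 4 was the lowest of the 8 ES cell and EB libraries. A low value there follows in part from how they were chosen, and it was the lowest of the 8 for 64.3% of the 1519 higher loci and 16.9% of all 12560. *Esrrb*, for example, had 135 and 119 FPKM in ES cells, with 73.9 and 60.3 FPKM at day 2 and 26.9 and 86.9 FPKM at day 6. *Hprt*, the X-linked purine salvage enzyme often used as a reference gene, was at 5.03 and 70.1 FPKM (log2 ratio 3.80) at day 4, against 99.3 and 131 FPKM at day 2, 29.8 and 98.4 FPKM at day 6 and 142 and 179 FPKM in ES cells. Such levels across days come from tables normalized separately. Of the 15 rises, 14 were again past 2-fold higher at day 6 and 2 were so at day 2. Among all loci expressed at both times, 8.21% were higher at day 6 and 0.921% at day 2. For the day 4 higher loci as a whole these shares were 52.1% and 4.85%. *Mylpf*, a myosin light chain of fast muscle, was at 3.84 and 69.1 FPKM, and *AU015836*, *2210409E12Rik*, *Nup62cl* and *Niban1* were also in the group.

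**Figure D2:**
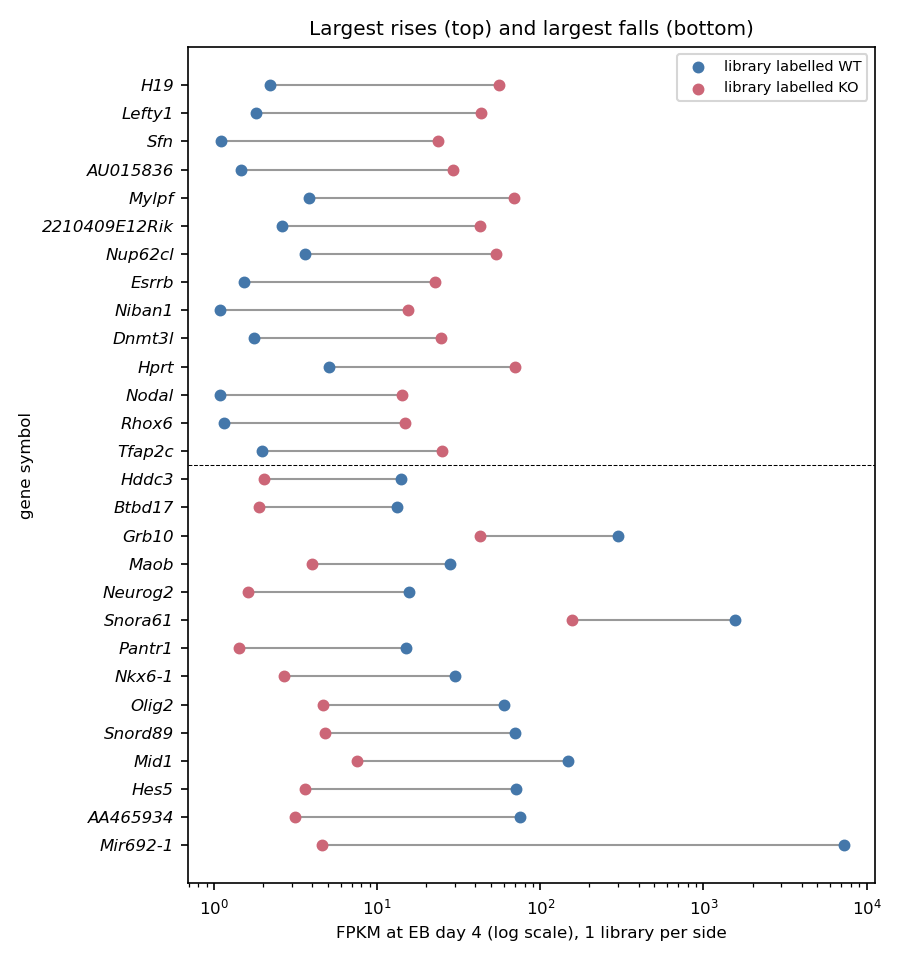
FPKM at EB day 4 (x axis, log scale) of 14 of the largest rises and 14 of the largest falls in the library labelled KO (y axis, by gene), 1 library per point, blue for labelled WT and red for labelled KO. Rises start between 1.08 and 5.03 FPKM in the library labelled WT, and *Grb10* and *Snora61* are the falls that stay above 10 FPKM in that labelled KO.

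Groups of genes known for a pathway or cell type were then described by how many expressed members passed 2-fold and by the median log2 ratio, beside 12.1% higher, 4.43% lower and -0.03 for all expressed loci. In bulk RNA, fewer cells of a type and less RNA per cell cannot be told apart. Since a member can pass 1 FPKM through 1 library alone and must then differ more often, the number above 1 FPKM in both libraries is given where it matters.

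**Figure D3:**
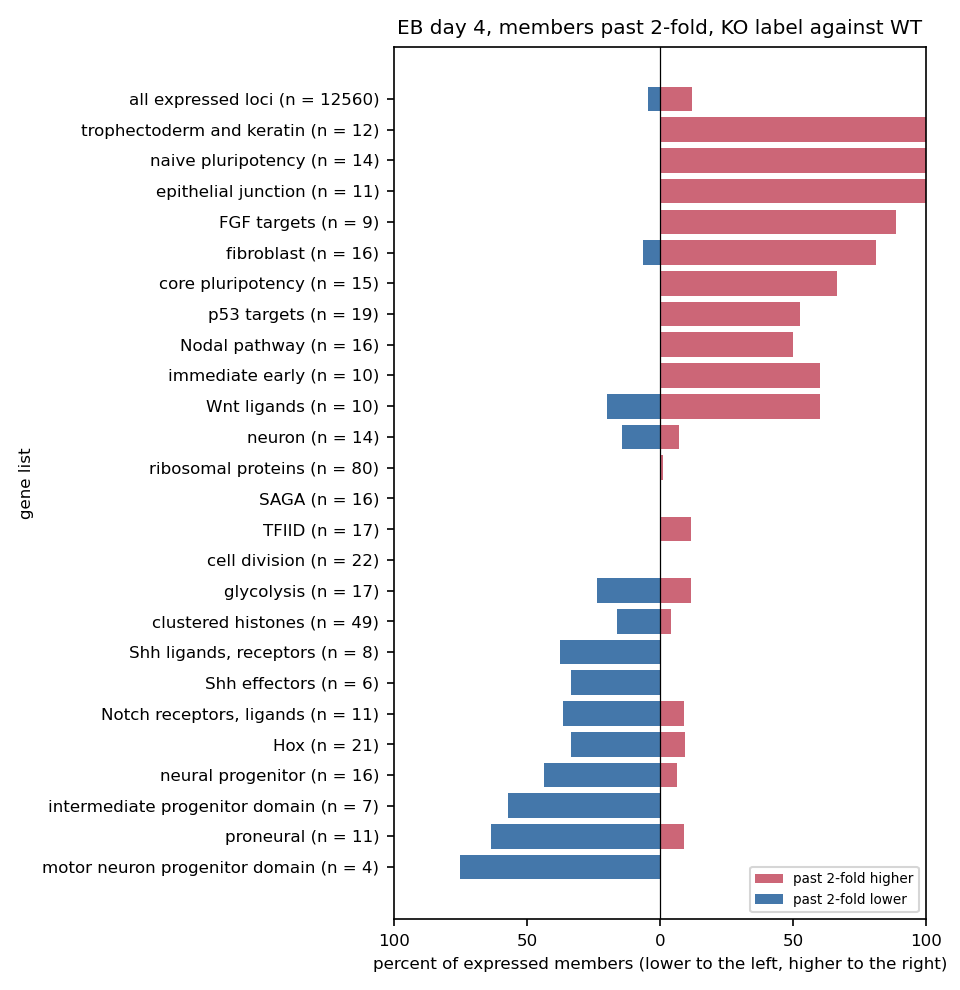
Percent of the expressed members of each gene list (y axis, with the number expressed) that were past 2-fold lower (blue, to the left) or higher (red, to the right) in the library labelled KO at EB day 4 (x axis). All expressed loci, at 12.1% higher and 4.43% lower, stand at the top, the lists of epithelial, naive pluripotency and trophectoderm genes reach 100% higher, and those of motor neuron progenitors and proneural genes extend to the left.

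General neural progenitor genes were expressed on both sides and lower in part. Of 16 expressed, 7 were past 2-fold lower and 1 higher, with a median log2 ratio of -0.83, and 15 of the 16 exceeded 1 FPKM in both libraries. *Sox3*, a SOXB1 factor of neuroepithelium, was at 150.4 and 41.2 FPKM (log2 ratio -1.87). *Fabp7*, a lipid carrier of radial glia, was at 4.61 and 1.34 FPKM (log2 ratio -1.79). *Msi1*, an RNA-binding protein of progenitors, was at 73.2 and 36.0 FPKM (log2 ratio -1.02). In contrast, *Sox2*, which ES cells and neural progenitors share, was at 83.7 and 85.7 FPKM (log2 ratio 0.03). The intermediate filament gene *Nes* was at 32.4 and 23.3 FPKM (log2 ratio -0.47). *Zic1*, a zinc finger gene of dorsal neural tissue, was the 1 member higher, at 0.780 and 2.22 FPKM (log2 ratio 1.51).

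Along the dorsoventral axis, genes of the motor neuron progenitor domain were lower and those of the floor plate were within 2-fold. For the motor neuron progenitor domain, 3 of 4 genes were lower (median -2.38), the fourth being *Olig1* at 8.83 and 4.91 FPKM (log2 ratio -0.85). Of 7 expressed genes of the intermediate domains, 4 were lower and none higher. *Irx3*, a homeodomain repressor that borders the *Olig2* domain, was at 69.99 and 23.7 FPKM (log2 ratio -1.56). *Dbx2*, of the p1 and p0 progenitors, was at 1.93 and 0.421 FPKM (log2 ratio -2.20). *Dbx1*, of p0 progenitors, was at 8.82 and 12.9 FPKM (log2 ratio 0.55), within 2-fold. For the floor plate and its neighbouring domain, 3 of 6 genes were expressed and none was past 2-fold, with *Foxa2* at 10.1 and 5.08 FPKM (log2 ratio -0.99). Of 11 dorsal genes 2 were expressed, both above 1 FPKM in the library labelled KO alone. *Msx2*, a BMP target, was at 0.409 and 2.66 FPKM (log2 ratio 2.70). *Lmx1b*, a LIM homeodomain gene, was at 0.607 and 5.52 FPKM (log2 ratio 3.19).

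The proneural genes were lower for the most part, with a median of -1.83. Of 11 expressed, 7 were past 2-fold lower and 1 higher, and of the 8 above 1 FPKM in both libraries 4 were lower. *Neurog1*, a bHLH gene of cranial and dorsal neurons, was at 8.96 and 1.63 FPKM (log2 ratio -2.46). *Neurod4*, which acts downstream of the neurogenins, was at 3.89 and 0.684 FPKM (log2 ratio -2.51). *Insm1*, a zinc finger gene of delaminating progenitors, was at 6.72 and 2.50 FPKM (log2 ratio -1.43). *Hes6*, which relieves HES1 repression, was at 15.6 and 10.9 FPKM (log2 ratio -0.51). *Btg2*, an antiproliferative gene of neurogenic divisions that p53 also induces, was the 1 gene higher, at 16.5 and 39.5 FPKM (log2 ratio 1.26).

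Most genes of neurons themselves were within 2-fold at day 4. Of 14 expressed, 2 were lower and 1 was higher (median -0.12). *Elavl4*, an RNA-binding protein gene of neurons, was at 2.73 and 0.880 FPKM (log2 ratio -1.63). Its paralog *Elavl3* was at 3.29 and 1.41 FPKM (log2 ratio -1.23). The pan-neuronal tubulin gene *Tubb3* was at 14.4 and 18.0 FPKM (log2 ratio 0.32). The neurofilament gene *Nefl* was at 3.86 and 13.7 FPKM (log2 ratio 1.83). *Prph*, the intermediate filament peripherin of motor and sensory neurons, was at 15.3 and 104 FPKM (log2 ratio 2.77), and had been at 4.76 and 4.32 FPKM in ES cells and 36.1 and 85.3 FPKM at day 2. Peripherin was thus expressed in ES cells already. *Mnx1*, a homeodomain factor of motor neurons, was at 2.32 and 5.01 FPKM (log2 ratio 1.11), and of 10 motor neuron genes 3 were expressed, 2 higher and 1 lower. The lower one was *Onecut1*, a homeodomain factor, at 1.55 and 0.416 FPKM (log2 ratio -1.90). By day 6, 16 of the 17 neuron genes then expressed were lower in the library labelled KO.

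*Hox* genes, which RA opens in order from the 3′ end of each cluster, were lower in part, chiefly in paralog groups 3 and 4. Of 39 *Hox* loci, 21 were expressed, 7 lower and 2 higher (median -0.75). This sign depends on the filter, and over all 38 loci above 0 FPKM in 1 library the median was 0.56. All 5 genes of paralog groups 1 and 2 were expressed, with 1 higher and none lower. The higher one was *Hoxb1*, at 12.6 and 30.8 FPKM (log2 ratio 1.29). In contrast, 6 of the 7 genes of groups 3 and 4 were lower and none higher, and their sum was 243 and 86.5 FPKM. *Hoxd3* was at 21.1 and 4.17 FPKM (log2 ratio -2.34). *Hoxa4* was at 27.9 and 6.93 FPKM (log2 ratio -2.01). *Hoxb4* was at 57.7 and 20.3 FPKM (log2 ratio -1.51). *Hoxc4*, at 37.3 and 22.1 FPKM (log2 ratio -0.76), was the 1 gene of these groups within 2-fold.

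Among groups 5 to 8, 7 of 11 *Hox* genes were expressed and 1 was lower, *Hoxb5* at 98.1 and 47.3 FPKM (log2 ratio -1.05). Its paralog *Hoxa5* was at 26.9 and 25.8 FPKM (log2 ratio -0.06). *Hoxc5* was at 11.6 and 19.4 FPKM (log2 ratio 0.74). The sum over these groups was 202 and 131 FPKM. Of the 16 genes of groups 9 to 13 only *Hoxb9* and *Hoxc13* exceeded 1 FPKM, the latter at 0.373 and 2.59 FPKM (log2 ratio 2.80). Of the 7 lower *Hox* genes, 6 were thus in groups 3 and 4, and *Hoxb5* was the other. The groups were defined by position, and no test of the difference between them was made.

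**Figure D4:**
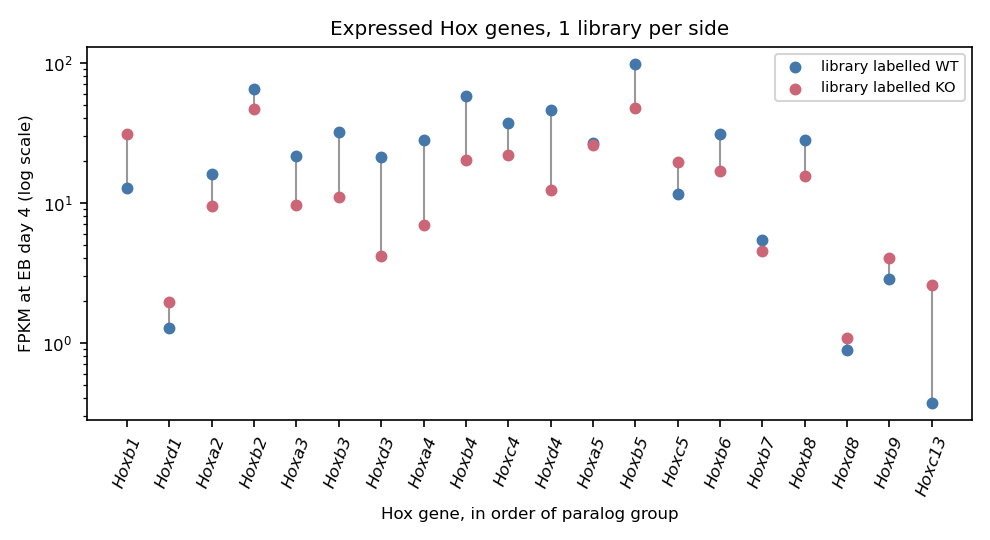
FPKM at EB day 4 (y axis, log scale) of 20 expressed *Hox* genes in order of paralog group (x axis), 1 library per point, blue for labelled WT and red for labelled KO. From *Hoxa3* to *Hoxd4* each red point lies below its blue point, while *Hoxb1* is higher in the library labelled KO.

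Genes that respond directly to RA differed in both directions or were within 2-fold. *Cyp26a1*, the RA-degrading enzyme induced by RA, was at 96.2 and 77.5 FPKM (log2 ratio -0.31). *Stra8*, a gene named for its induction by RA, was at 90.4 and 177 FPKM (log2 ratio 0.97). *Rarb*, a receptor gene with an RA response element, was at 48.0 and 30.2 FPKM (log2 ratio -0.67). All 3 were within 2-fold. *Crabp2*, which carries RA to its receptors, was at 1800.1 and 843 FPKM (log2 ratio -1.09). *Rarg* was at 7.32 and 23.8 FPKM (log2 ratio 1.70). In a list of 9 RA targets, which holds *Stra8* too, 2 were higher and 2 lower (median -0.15). Of the 9, 8 exceeded 1 FPKM in both libraries, and 1 of the 2 higher genes passed in the library labelled KO alone. The highest ratio was that of *Cdx1*, a caudal homeobox gene, at 1.54 and 18.8 FPKM (log2 ratio 3.61). The lowest was that of *Tshz1*, a zinc finger gene of the trunk, at 39.6 and 18.7 FPKM (log2 ratio -1.08). *Nr2f1*, an orphan receptor of neuroectoderm, was at 29.3 and 14.3 FPKM (log2 ratio -1.03).

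In the Shh pathway no expressed gene was past 2-fold higher. Of the 8 expressed ligands, receptors and modulators 3 were lower and none higher, with a median of -0.83. *Ptch1*, the Shh receptor that the pathway also induces, was at 92.6 and 26.5 FPKM (log2 ratio -1.80). *Hhip*, a ligand-binding antagonist, was at 3.16 and 0.956 FPKM (log2 ratio -1.72). *Smo*, the target of SAG, was at 58.3 and 30.9 FPKM (log2 ratio -0.91). Among 6 effectors 2 were lower. *Gli2*, the main activator, was at 6.31 and 2.50 FPKM (log2 ratio -1.34). *Gli3*, the main repressor, was at 12.5 and 11.0 FPKM (log2 ratio -0.19). *Sufu*, which restrains GLI proteins, was at 16.8 and 11.3 FPKM (log2 ratio -0.57).

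For Notch, ligands and modulators were lower in part, while no receptor or processing gene was past 2-fold lower. Of 11 expressed receptors, ligands and Fringe genes 4 were lower and 1 higher (median -0.91). *Dll3*, a Delta-like gene of committing neuronal precursors, was at 6.54 and 1.77 FPKM (log2 ratio -1.89). *Dll4*, a further Delta ligand gene, was at 1.91 and 0.371 FPKM (log2 ratio -2.37). *Dll1* was at 19.3 and 9.74 FPKM (log2 ratio -0.98), just within 2-fold. *Lfng*, a Fringe gene whose product glycosylates Notch, was at 13.6 and 5.40 FPKM (log2 ratio -1.34). The related *Mfng* was at 11.9 and 2.84 FPKM (log2 ratio -2.07). *Jag2*, a ligand gene of the Jagged class, was the 1 gene higher, at 6.14 and 14.48 FPKM (log2 ratio 1.24).

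The receptors *Notch1*, *Notch2* and *Notch3* were each within 2-fold, with *Notch1* at 11.2 and 8.49 FPKM (log2 ratio -0.40). Of 13 genes of the processing and transcription machinery, 1 was past 2-fold, the presenilin gene *Psen2* at 5.06 and 13.3 FPKM (log2 ratio 1.39), and *Rbpj*, the DNA-binding partner of Notch, was at 33.4 and 46.0 FPKM (log2 ratio 0.46). Among 6 expressed targets *Hes5* alone was past 2-fold. *Hes1*, a repressor used in many tissues, was at 47.5 and 40.9 FPKM (log2 ratio -0.22). *Hey1*, a related repressor, was at 7.86 and 6.32 FPKM (log2 ratio -0.31). *Nrarp*, a feedback inhibitor, was at 7.08 and 4.23 FPKM (log2 ratio -0.74). *Hes5* is counted among the neural progenitor genes as well. By letters, the promoters of *Hes7* and *Hey2* held 1 and 2 matches of TGGGAA and that of *Nrarp* held 0, at log2 ratios of 0.90, -0.41 and -0.74.

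Genes of pluripotency were higher, the naive ones without exception. All 14 naive pluripotency genes were expressed and past 2-fold higher (median 2.98), 7 of them above 1 FPKM in both libraries. *Klf2*, a Krüppel-like factor of the naive state, was at 3.20 and 34.4 FPKM (log2 ratio 3.42). *Spp1*, the secreted protein osteopontin, was at 28.5 and 202 FPKM (log2 ratio 2.82). *Zfp42* (Rex1), a common naive marker, was at 3.91 and 12.6 FPKM (log2 ratio 1.68). The lowest ratio in the list was that of *Klf4*, at 0.979 and 2.97 FPKM (log2 ratio 1.60). Of 15 core pluripotency genes 10 were higher and none lower (median 2.49). *Utf1* was at 5.83 and 58.8 FPKM (log2 ratio 3.33). *Dppa5a*, an ES cell RNA-binding protein, was at 77.8 and 619 FPKM (log2 ratio 2.99). *Tdgf1* (Cripto), the Nodal coreceptor, was at 0.320 and 8.62 FPKM (log2 ratio 4.75).

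The other 5 core genes were within 2-fold. *Lin28a*, a blocker of let-7 processing, was at 199 and 212 FPKM (log2 ratio 0.09). *Trim28*, a corepressor of most cell types, was at 364 and 335 FPKM (log2 ratio -0.12). *Rif1*, a replication timing factor, was at 18.2 and 22.8 FPKM (log2 ratio 0.33). *Sall4* was at 32.5 and 49.1 FPKM (log2 ratio 0.59), and *Sox2* was given above. The 4 primed epiblast genes expressed had a median of 0.00, with *Dnmt3b* at 17.7 and 22.4 FPKM (log2 ratio 0.35). *Pou3f1* (Oct6) was at 2.63 and 5.65 FPKM (log2 ratio 1.10). In ES cells and at day 2 none of the core and naive genes was past 2-fold. The farthest from equal was *Zfp42*, at 80.6 and 43.3 FPKM in ES cells and 65.2 and 33.7 FPKM at day 2, lower in the library labelled KO where it was higher at day 4. *Klf4* was lower there at day 2 as well, at 12.02 and 6.26 FPKM. *Nanog* started at 168 and 182 FPKM in ES cells, reached 3.77 and 42.9 FPKM at day 4 after 60.4 and 51.5 FPKM at day 2, and had 62.5 and 172 FPKM at day 6.

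Genes of the Nodal pathway were higher in part. Of 16 expressed genes 8 were higher and none lower, and 5 of the 13 above 1 FPKM in both libraries were higher. *Lefty2*, a direct target and antagonist, was at 0.295 and 6.52 FPKM (log2 ratio 4.47). *Gdf3*, a ligand that pairs with Nodal, was at 1.38 and 7.78 FPKM (log2 ratio 2.49). *Gdf1*, a ligand of the same family, was at 4.95 and 5.04 FPKM (log2 ratio 0.03), within 2-fold. *Foxh1*, the DNA-binding partner of SMAD2, was at 14.9 and 45.8 FPKM (log2 ratio 1.62). The transducers *Smad2*, *Smad3* and *Smad4* had log2 ratios of 0.03, -0.45 and -0.04, and the receptor gene *Acvr2b* was at 20.6 and 15.4 FPKM (log2 ratio -0.42). *Smad7*, an inhibitor induced by the TGF-beta family, was at 1.33 and 5.23 FPKM (log2 ratio 1.97).

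Feedback targets of FGF signalling were higher as well, 8 of 9 expressed (median 2.05). Of these 9, 3 passed the filter in the library labelled KO alone, and 5 of the 6 above 1 FPKM in both were higher. *Etv4*, an ETS factor induced by ERK, was at 0.605 and 8.33 FPKM (log2 ratio 3.78). Its relative *Etv5* was at 2.87 and 17.3 FPKM (log2 ratio 2.59). *Spry4*, a feedback inhibitor, was at 0.108 and 2.02 FPKM (log2 ratio 4.23). *Egr1*, an immediate early gene, was within 2-fold at 4.14 and 6.80 FPKM (log2 ratio 0.72). *Fgf4*, the ES cell ligand, was at 0.204 and 2.82 FPKM (log2 ratio 3.79). *Fgf15*, the ligand of the neural tube, was at 57.7 and 20.3 FPKM (log2 ratio -1.51). Of 7 expressed BMP targets 2 were lower and 2 higher. *Id1*, an inhibitor of bHLH factors, was at 69.0 and 23.3 FPKM (log2 ratio -1.57). *Id3* was at 273 and 92.8 FPKM (log2 ratio -1.56).

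Wnt ligand genes went both ways. Of 10 expressed 6 were higher and 2 lower, but 5 passed 1 FPKM in the library labelled KO alone and 2 in that labelled WT alone. *Wnt6*, of ectoderm, was at 0.135 and 1.27 FPKM (log2 ratio 3.23). *Wnt7a*, a ligand of neuroepithelium, was at 1.56 and 0.280 FPKM (log2 ratio -2.48). In a list of mesenchymal genes 6 of 10 were higher and 1 was lower. *Fn1*, which encodes fibronectin, was at 19.3 and 55.3 FPKM (log2 ratio 1.52). *Zeb2*, a repressor of E-cadherin also used in neurons, was at 7.88 and 2.33 FPKM (log2 ratio -1.76).

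Epithelial and trophectoderm genes formed another set of high ratios. All 11 expressed genes of epithelial junctions and splicing were higher (median 2.00), 10 of them above 1 FPKM in both libraries. *Cldn4*, a tight junction claudin, was at 35.8 and 334 FPKM (log2 ratio 3.22). *Cdh1*, which encodes E-cadherin, was at 27.8 and 103 FPKM (log2 ratio 1.89). *Epcam*, an adhesion protein, was at 23.7 and 81.2 FPKM (log2 ratio 1.78). The lowest ratio was that of *Ocln*, at 3.43 and 8.76 FPKM (log2 ratio 1.35). N-cadherin, the cadherin of neural tissue encoded by *Cdh2*, was at 52.7 and 36.4 FPKM (log2 ratio -0.53). All 12 expressed trophectoderm and keratin genes were higher (median 3.18), 6 above 1 FPKM in both. *Krt8*, a keratin gene of simple epithelia, was at 12.5 and 107 FPKM (log2 ratio 3.10), and at day 6 it had 47.2 and 441 FPKM. *Krt18*, its dimer partner, was at 29.8 and 128 FPKM (log2 ratio 2.11). *Krt19*, another simple keratin gene, was at 8.45 and 75.3 FPKM (log2 ratio 3.16).

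Most markers of fibroblasts, the feeder cell type, were higher too. Of 16 genes, all expressed, 13 were higher and 1 lower, 10 of the 16 passed 1 FPKM in the library labelled KO alone, and their summed level was 22.5 and 58.2 FPKM. None was listed at 0. Of the 5 above 1 FPKM in both libraries 3 were higher. *Col1a1*, a collagen chain, was at 1.23 and 9.74 FPKM (log2 ratio 2.98). *Dcn*, the proteoglycan decorin, was at 0.329 and 6.03 FPKM (log2 ratio 4.20). The smooth muscle genes of the list went otherwise. *Tagln*, an actin-binding protein with the highest level of the list in the library labelled WT, was at 9.53 and 8.43 FPKM (log2 ratio -0.18), within 2-fold. *Acta2*, smooth muscle actin, was the 1 gene lower, at 2.16 and 0.658 FPKM (log2 ratio -1.72). In ES cells they had been at 154.7 and 149.99 FPKM and at 153 and 170.4 FPKM. In the libraries labelled WT *Col1a1* had 11.6 FPKM at day 2 and 17.0 FPKM at day 6, in tables normalized separately. The summed level of the trophectoderm and keratin genes was 58.3 and 372 FPKM, and that of the core pluripotency genes 819 and 1629 FPKM. The part of fibroblasts in the other results was not tested.

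Of 16 mesoderm genes 6 were expressed and all 6 were higher, 4 of them above 1 FPKM in the library labelled KO alone, and with 1 FPKM added to both values 1 of the 6 was. The defining mesoderm gene *T* (Brachyury) was at 0.0998 and 0.0914 FPKM, *Mesp1* at 0.0197 and 0.0552 FPKM and *Msgn1* was listed at 0 in both. Of 14 endothelial genes 3 were expressed and higher, *Flt1*, *Eng* and *Pecam1*, while the defining gene *Cdh5* was at 0.125 and 0.882 FPKM. Of 12 expressed endoderm genes 2 were higher and 1 lower, with *Gata4* at 1.44 and 5.34 FPKM (log2 ratio 1.89). *Sox17* was at 3.35 and 4.78 FPKM (log2 ratio 0.51). Of 9 expressed germ line genes 8 were higher, and 4 of the 5 above 1 FPKM in both libraries were. With 1 FPKM added 3 of the 9 were higher. Among the 8 was *Ddx4* (Vasa), an RNA helicase, at 2.60 and 9.46 FPKM (log2 ratio 1.86). *Taf7l*, a germ cell paralog of TAF7, was at 0.463 and 1.83 FPKM (log2 ratio 1.98).

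*Taf7l* and *Taf9b* itself were the 2 genes of TFIID past 2-fold among 17 expressed, and none of 16 SAGA genes was. With 1 FPKM added to both values, 0 of the 17 TFIID genes were past 2-fold higher. *Taf9*, the paralog of *Taf9b*, was at 181 and 146 FPKM (log2 ratio -0.30). *Tbp*, the TATA-binding subunit, was at 22.9 and 19.1 FPKM (log2 ratio -0.26). *Taf7* was at 21.8 and 38.7 FPKM (log2 ratio 0.83). In SAGA the largest differences were those of *Eny2*, of the deubiquitinase module, at 33.6 and 18.8 FPKM (log2 ratio -0.84). *Kat2b*, an acetyltransferase, was at 3.48 and 5.57 FPKM (log2 ratio 0.68). The median was -0.20 over TFIID and -0.03 over SAGA.

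Targets of p53 were higher in part. Of 19 expressed 10 were past 2-fold higher and none lower (median 1.13), and 9 of these 10 exceeded 1 FPKM in both libraries. *Pmaip1* (Noxa), a pro-apoptotic BH3 gene, was at 8.75 and 65.2 FPKM (log2 ratio 2.90). *Perp*, an apoptosis effector, was at 12.8 and 81.4 FPKM (log2 ratio 2.67). *Cdkn1a*, the cyclin-dependent kinase inhibitor p21, was at 49.3 and 108 FPKM (log2 ratio 1.13). *Mdm2*, the ubiquitin ligase of p53, was at 33.9 and 88.7 FPKM (log2 ratio 1.39). *Bax* was at 175 and 183 FPKM (log2 ratio 0.06). *Aen*, an apoptotic nuclease, was at 69.5 and 47.0 FPKM (log2 ratio -0.56). *Perp* is also a desmosome protein of epithelia, and *Btg2* is also in the proneural list. Of 22 genes of the core apoptosis machinery 3 were higher and 1 lower (median 0.01), and of 9 death receptor genes 4 were higher, with *Fas* at 0.812 and 2.30 FPKM (log2 ratio 1.5).

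Genes of cell division were shifted together by small amounts. None of 22 was past 2-fold, and all 22 had a ratio below 0 (median -0.38), or 21 of them with the libraries scaled to the same sum. *Pcna*, the replication clamp, was at 619 and 320.0 FPKM (log2 ratio -0.95). *Rrm2*, of ribonucleotide reductase, was at 286 and 173 FPKM (log2 ratio -0.72). *Mki67*, the common proliferation marker, was at 32.0 and 26.2 FPKM (log2 ratio -0.29). In a list of 15 expressed regulators of the G1 phase, 3 were past 2-fold higher and 1 lower (median -0.06). The D-type cyclin gene *Ccnd2* was past 2-fold lower, at 523 and 183 FPKM (log2 ratio -1.51). The inhibitor gene *Cdkn2b* was higher, at 0.737 and 4.40 FPKM (log2 ratio 2.58). As a comparison, 80 ribosomal protein genes had a median of 0.11 with 1 past 2-fold, and 14 respiratory chain genes a median of -0.12 with none.

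Glycolysis genes were divided. Of 17 expressed 4 were lower and 2 higher (median -0.43), and 13 of the 17 had a ratio below 0. *Ldha*, of lactate dehydrogenase, was at 615 and 143 FPKM (log2 ratio -2.11). *Pgk1*, the X-linked phosphoglycerate kinase gene, was at 601 and 139 FPKM (log2 ratio -2.11). The glucose transporter genes went in opposite directions. *Slc2a1* (GLUT1) was at 681 and 324 FPKM (log2 ratio -1.07). *Slc2a3* was at 79.2 and 228 FPKM (log2 ratio 1.52). Immediate early genes were higher for 6 of 10 and lower for none. *Fos* was at 0.557 and 2.38 FPKM (log2 ratio 2.10). *Junb*, of the same AP-1 family of factors, was at 3.46 and 13.4 FPKM (log2 ratio 1.95).

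The lists were also followed over time, by the median log2(FPKM + 1) of their members in each library. For the naive list it was, in the libraries labelled WT, 6.15 in ES cells and then 5.20, 1.06 and 3.41 at days 2, 4 and 6. Those labelled KO had 5.92, 5.16, 3.30 and 4.93. On both sides the level was thus lowest at day 4 and higher again at day 6, for 14 of 14 genes labelled WT and 12 of 14 labelled KO, beside 29.3% and 29.7% of all expressed loci. The proneural list was at 0.18 and 0.24 at day 2, at 3.32 and 1.63 at day 4, and at 4.94 and 1.11 at day 6. Hence from day 4 to day 6 the proneural list went up in the libraries labelled WT and down in those labelled KO. Levels between days come from separate tables.

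**Figure D5:**
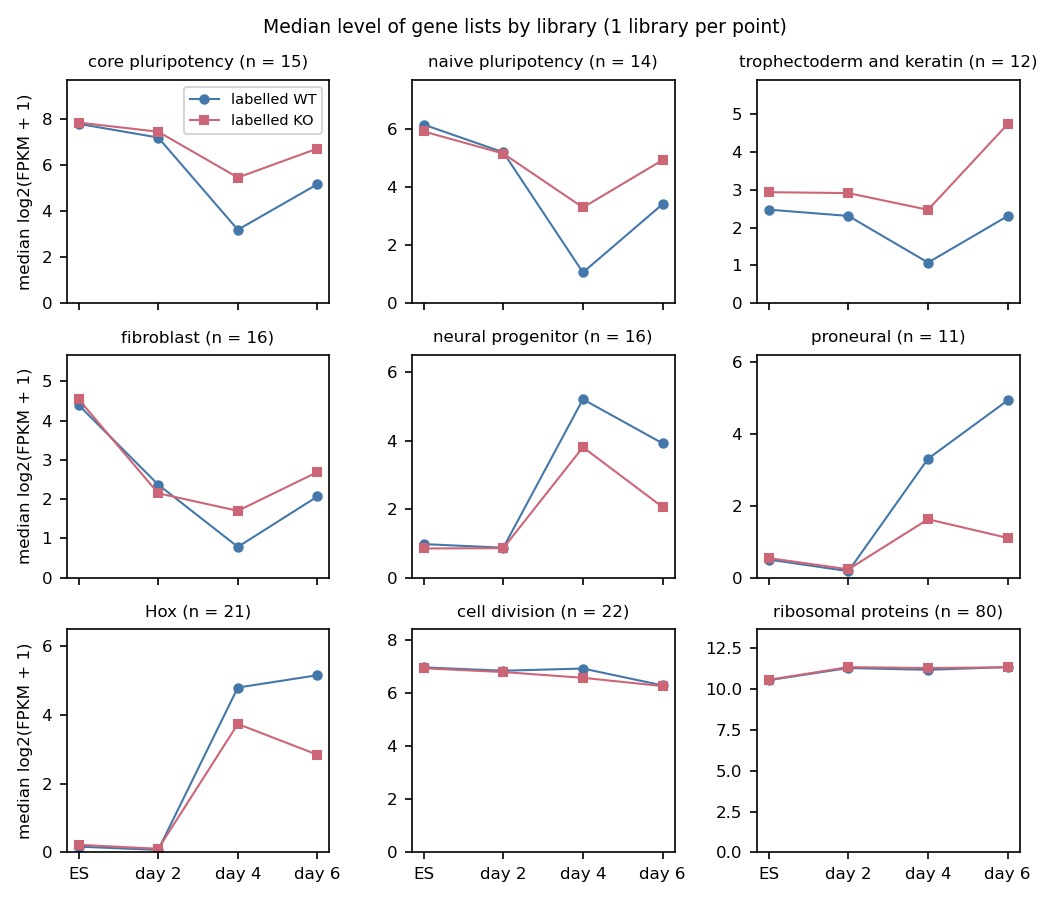
Median log2(FPKM + 1) of the members expressed at day 4 of 9 gene lists (y axis) in ES cells and EBs of days 2, 4 and 6 (x axis), blue circles for libraries labelled WT and red squares for those labelled KO, 1 library per point. The lines of the neural, proneural and *Hox* lists separate at day 4, those of the pluripotency lists dip most in the library labelled WT, and the ribosomal protein list is level.

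Loci expressed at day 4 were also grouped by their course from day 2 to day 6. The course uses no day 4 value, but the 1 FPKM filter does. A locus low in 1 day 4 library is included only through the other, so the shares follow in part from the filter. Of 849 expressed loci that went up more than 4-fold in the libraries labelled WT, 21.2% were past 2-fold lower and 17.8% past 2-fold higher at day 4, with a median log2 ratio of -0.31. Of 338 loci that went down more than 4-fold, 46.4% were higher and 6.21% lower, with a median of 0.86. Among the 8236 loci within 2-fold between these days 6.58% were higher and 1.76% lower. In the libraries labelled KO the courses gave other shares. Of 560 loci that went up more than 4-fold there, 41.8% were higher and 9.11% lower, with a median of 0.74. Of 184 that went down, 23.4% were higher and 11.4% lower, with a median of -0.01. The median of loci that went up was thus below 0 by the libraries labelled WT and above 0 by those labelled KO.

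The day 4 differences were set beside the ratios of the other time points, which share no library with day 4 but the same pair of lines. Of 460 lower loci that were expressed at day 6 too, 291 (63.3%) were again past 2-fold lower, against 9.0% of all loci expressed at both, and 20 were higher. Of 1385 higher loci 721 (52.1%) were again higher, against 8.21%, and 42 were lower. Among loci expressed at both days, the shared ones made up 26.8% of the 1085 lower and 72.8% of the 990 higher loci of day 6. At day 2 the shares were 16.7% of 329 lower loci, against 0.982%, and 4.85% of 1257 higher loci, against 0.921%, while 8 of the lower loci were higher and 13 of the higher ones lower. In ES cells they were 7.40% of 311, against 0.490%, and 0.897% of 1226, against 0.411%. In the opposite direction, 14 of these 311 lower loci (4.50%) were higher in ES cells, beside 23 lower, and 12 of the 1226 higher loci (0.979%) were lower, beside 11 higher.

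TAF9B and RNA POL2 peaks of EBs enriched in motor neurons were counted in each locus and within 5 kb of it. A TAF9B peak was present at 46.9% of the lower loci (95% Wilson interval 42.7 to 51.0, n = 557), 37.7% of the higher loci (35.3 to 40.2, n = 1519) and 50.6% of the loci within 2-fold (49.7 to 51.6, n = 10484). For RNA POL2 the shares were 47.8%, 28.5% and 71.1%. The intervals of the higher loci did not meet those of the loci within 2-fold for either factor, while for TAF9B the interval of the lower loci met that of the loci within 2-fold. Longer loci offer more room for a peak, and median lengths were 20.2, 20.01 and 24.8 kb. Within loci of 5 kb or less, the TAF9B shares were 43.2%, 31.2% and 48.9%, in the same order. The intervals cover counting error only, and the higher loci were also the ones of low level.

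Of the 15 largest falls, *Hes5*, *Nkx6-1*, *Olig2*, *Btbd17*, *Hddc3*, *Snora61* and *AA465934* had both a TAF9B and an RNA POL2 peak, and *Neurog2*, *Mid1* and *Grb10* had a TAF9B peak without RNA POL2. *Pantr1* had 4 RNA POL2 peaks and no TAF9B peak. Of the 15 largest rises *2210409E12Rik* had both, and *Sfn* and *Esrrb* had TAF9B peaks alone. Over all 12560 expressed loci, 48.9% had a TAF9B peak and 64.9% an RNA POL2 peak. The highest TAF9B score at *Sfn* was 180, above the 68.1 at *Hes5*, so a peak was not limited to genes that were lower in the library labelled KO.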

How the data were processed

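Poly-A RNA-seq libraries of ES cells and EBs and ChIP-seq peak lists were analysed as deposited. The authors mapped RNA reads to RefSeq genes of mm9 with TopHat and computed FPKM per locus with Cuffdiff, separately for each pair of libraries, and the deposited FPKM values were used without change. The deposited score of each ChIP peak comes from MACS after Bowtie mapping. Versions are not given in the sources used here. The fold change and p-value columns hold the authors' comparisons and were not used. Depth is unknown, so low FPKM values carry an error that cannot be stated.

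The log2 ratio of FPKM, labelled KO over labelled WT, was taken without a pseudocount among loci above 1 FPKM in at least 1 library, and a locus at 0 in 1 library (34 labelled WT, 30 labelled KO) counted as past 2-fold without a ratio. Replicates do not exist, so no test was run. Loci that Cuffdiff marked as too deeply covered (*Eef2*, *Snord37* and *Eef1a1* among them) are listed at 0 in 1 or both libraries and were left out. Symbols came from RefSeq accessions for 22762 loci and from GENCODE positions (reciprocal overlap 0.8) for 258, and 132 had none. Paralogous or overlapping loci can share reads. Named genes were *Taf9b*, the 15 largest rises and falls, and members of 62 gene lists. The rises and falls were taken among loci above 1 FPKM in both libraries and at 10 FPKM or more in 1. List members were taken from the extremes, the members by role and those named by the study. Not every extreme or gene named by the study is given. Some genes are not reported here. Members and lists were chosen with earlier results of these data known. Peaks were counted with a flank of 5 kb, and shares carry 95% Wilson intervals. On simulated FPKM of 23148 loci, 200 of 200 loci changed 4-fold and 0 of 200 changed 1.2-fold were called past 2-fold. Alternatives were pseudocounts, filters, scalings, 1 locus per symbol, a length trend and a 4-fold limit, with 2 added after the data had been seen (without microRNA and snoRNA loci, and with the marked loci kept). Computations ran in Python 3.11.15 (pandas 2.3.3, numpy 2.4.6), with statsmodels 0.14.6 for the length trend, scipy 1.17.1 for intervals and, for plots, matplotlib 3.10.9.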

Additional observations from a re-analysis of the deposited data

Results flagged for a closer look

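The genes below, members of the gene lists, were past 2-fold in opposite directions at day 4 and at day 2 or day 6. Directions are those of the library labelled KO against that labelled WT. ES cells, the Y-linked list and the longest lists, such as microRNA and snoRNA loci, were not searched. With 1 library per side the difference between the time points was not tested.

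*Mnx1*, the homeodomain factor of motor neurons, went from a log2 ratio of 1.11 at day 4 to -3.14 at day 6, when it was at 14.3 and 1.62 FPKM. *Nefl*, the light neurofilament chain, had 1.83 at day 4 and -2.51 at day 6, at 148 and 26.0 FPKM. *Hoxb1*, of rhombomere 4, had 1.29 at day 4 and -1.05 at day 6, at 20.8 and 10.02 FPKM. *Mnx1*, *Nefl* and *Hoxb1* were therefore higher in the library labelled KO at day 4 and lower in it at day 6.

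For *Pou3f1* (Oct6) the log2 ratios were 1.10 (day 4) and -1.29 (day 6), and *Foxf1*, a mesoderm gene, 1.17 and -1.14. *Wnt8a*, a ligand of the early posterior embryo, had 4.05 at day 4, at 0.0676 and 1.12 FPKM, and -1.59 at day 2. *H2aw*, a histone H2A gene, had 1.12 at day 4 and -1.40 at day 6. In the other direction, *Acta2*, the smooth muscle actin also made by fibroblasts, had -1.72 at day 4 and 1.04 at day 6, and *Wnt5a* had -1.12 and 1.01.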

How the results depend on the processing

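The counts of 1519 higher and 557 lower loci depend on the treatment of low values. With 1 FPKM added to both values they were 947 and 363, above 5 FPKM in 1 library 749 and 356, without a filter 4328 and 1673, and at 4-fold 533 and 143. Among loci above 1 FPKM in both libraries 864 were higher. The share of higher loci, 73.2%, was 68.8% above 1 FPKM in both libraries, 67.8% above 5 FPKM, 76.1% with both libraries scaled to the same sum and 75.1% without microRNA and snoRNA loci. The direction of each was kept.

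For the gene lists, above 1 FPKM in both libraries the members past 2-fold higher were 7 naive pluripotency, 5 Nodal, 6 trophectoderm and 3 fibroblast genes, and those lower 4 proneural genes and 1 neuron gene. Above 5 FPKM they were 8 naive, 5 trophectoderm and 4 fibroblast genes higher, and 4 proneural and 0 neuron genes lower. With 1 FPKM added, 8 fibroblast genes were higher and 0 neuron genes lower. Fewer members pass the stricter filters by construction. The median log2 ratio of 12 lists changed sign with the filter, 2 of them lists the text leads with: *Hox*, from -0.75 over 21 loci to 0.56 over 38 without a filter, and neuron, from -0.12 over 14 to 0.11 over 8 above 5 FPKM. Above 1 FPKM in both libraries 0 FGF ligand and 1 Wnt ligand gene were higher, and above 5 FPKM 0 FGF ligand and 3 mesenchymal genes, with medians below 0. The hindbrain and caudal list went from 0.95 over 7 to -1.16 over 4 above 1 FPKM in both. The RA receptor list went from -0.36 to 0.13 without a filter. With 1 FPKM added, 1 mesoderm and 3 germ line genes were higher. Over all alternatives 52 counts of the remaining lists moved by more than 1.5 times, and 196 further values of the leading results and 370 of the remaining lists stayed within 1.5 times the count, or within the interval of the share, given in the text; these limits do not refer to the sign of a median.

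No paired analysis was possible because each side has 1 library with replicate number 1. With 1 library per side, the difference between the clones, between EB batches and between genotypes cannot be told apart.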

Other observations

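Imprinted genes were higher in part at day 4. Of 21 expressed 6 were past 2-fold higher and 1 lower, beside 12.1% and 4.43% of all loci, with a median log2 ratio of 0.31. *Igf2*, the growth factor that shares an imprinting control region with *H19*, was at 8.89 and 85.3 FPKM (log2 ratio 3.26). *Plagl1*, a zinc finger regulator of imprinted growth genes, was at 0.339 and 5.23 FPKM (log2 ratio 3.95). *Phlda2*, a placental growth restrictor, was at 7.18 and 31.7 FPKM (log2 ratio 2.14). *Nnat*, of neuronal endoplasmic reticulum, was at 6.41 and 35.5 FPKM (log2 ratio 2.47). In contrast *Meg3* was at 8.23 and 4.42 FPKM (log2 ratio -0.90). *Peg3* was at 31.8 and 39.8 FPKM (log2 ratio 0.33). *Grb10* was the 1 gene lower.

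Clustered histone genes leaned to lower values. Of 49 expressed 8 were lower and 2 higher (median -0.28), and 37 had a ratio below 0, or 33 with the libraries scaled to the same sum. *H2ac23*, a histone H2A gene, was at 36.8 and 11.9 FPKM (log2 ratio -1.63). *H4c9*, a histone H4 gene, was at 5.79 and 15.8 FPKM (log2 ratio 1.45). These genes have near-identical copies that share reads, and most of their messages lack a poly-A tail, so the values of single copies are uncertain. MicroRNA and snoRNA loci leaned the same way at day 4, with 66 of 167 lower and 35 higher. Of 11998 loci with protein-coding accessions 424 were lower and 1438 higher. Of 160 microRNA and snoRNA loci, 1 per symbol, 31 were listed at 0 in the library labelled WT and 28 in that labelled KO. Each of these counts as past 2-fold. The list went both ways at other times. It had 33 higher and 27 lower in ES cells, 35 and 29 at day 2 and 37 and 39 at day 6.

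Some loci differed past 2-fold in the same direction at all 4 time points. Beside *Taf9b* and the named falls *Mir692-1*, *Mid1*, *Grb10* and *AA465934*, *Gm5779* was at 61.5 and 0.740 FPKM (log2 ratio -6.38) at day 4 and *Fxyd6*, a regulator of the sodium pump, at 97.3 and 20.4 FPKM (log2 ratio -2.25). *4930470H14Rik* was at 10.5 and 2.47 FPKM (log2 ratio -2.09), and *Mir1906-2*, *Olfr856-ps1* and *Snora43* were also lower throughout. Higher at all time points were *3830417A13Rik*, X-linked, at 0.194 and 8.48 FPKM (log2 ratio 5.45). *Hand1*, a bHLH gene of heart and trophoblast, was at 0.120 and 1.16 FPKM (log2 ratio 3.27), and *Tmem254a*, at 2.29 and 11.6 FPKM (log2 ratio 2.34), which is listed at 3 loci with the same values. Loci outside the lists are named here after their values were seen.

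By chromosome, the median log2 ratio at day 4 lay between -0.10 and 0.03 over the autosomes other than chromosome 8, where it was -0.00079. In ES cells the median on chromosome 8 was -0.18 over 658 loci and at day 2 -0.16 over 650, while the other autosomes lay between -0.03 and 0.05 and between -0.02 and 0.03. At day 6 it was -0.04. On chromosome X the day 4 median was -0.11 over 440 loci, with 13.2% higher and 6.82% lower. Both shares lay within those of the autosomes other than chromosome 8, from 9.24% to 17.5% higher and from 3.07% to 8.11% lower.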
